A study of Rattus norvegicus with 4 samples.

Results

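Neurons born deep in the embryonic cortex travel outward to reach their layer, and mutations in the genes that drive this movement leave the cortex smooth or disordered, the malformation called lissencephaly. The 34 genes described here are known for that journey: the doublecortin family, the LIS1 complex, the reelin pathway, the kinase CDK5 with its activators, neuronal tubulins, microtubule and actin regulators, and receptors that attach a moving cell to its surroundings. They were taken as a named list of genes, and a gene was counted where the array annotation tied a probe set to it alone. All 34 were found, each with 1 probe set, among 17245 genes measured in the series.

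Expression was measured in cultured cortical neurons of Sprague Dawley rat embryos at embryonic day 18. Of the 4 arrays, 2 came from neurons that received PHF6shRNA-2, a short hairpin RNA against the nuclear protein PHF6, carried by a pLL3.7 lentivirus (PHF6 shRNA, labelled PHF6 knockdown). The other 2 came from neurons that received a control shRNA in the same vector (control shRNA, labelled wild type). RNA was taken 5 days after infection in both groups, and the neurons had no other treatment. The study is known for linking PHF6 to neuronal migration, and the comparison asks whether transcripts of the migration machinery differ in neurons that carry the hairpin. Only 1 hairpin was used, so loss of PHF6 and other actions of that hairpin cannot be told apart, and the arrays measure transcripts, not movement of cells.

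Migration in the cortex is driven by coupled work of the cytoskeleton. Microtubules, stabilised by doublecortin, link the leading process to the nucleus, and the motor dynein with its partner LIS1 pulls the nucleus forward. Reelin, a secreted glycoprotein, binds the receptors encoded by Vldlr and Lrp8 and acts through the adaptor Dab1, while CDK5 phosphorylates several of these cytoskeletal proteins. Actin regulators and adhesion molecules set the grip of the cell on radial glia and on the matrix.

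The deposited values are probe set intensities on a linear scale, and each difference is the mean log2 value of the PHF6 shRNA arrays minus that of the control arrays, given with limma's SE. Medians per array lay between 40.9 and 41.7 intensity units. A background level was set per array from 1272 chemosensory receptor genes (olfactory and vomeronasal) at their 95th percentile, and lay between 34.7 and 43.7 intensity units. The targeted gene gave no check of the labels: Phf6 read 34.4 and 31.3 in PHF6 shRNA arrays, against 32.8 and 34.3 in control arrays, below background on all 4, with a difference of -0.03 ± 0.09 (limma adjusted p = 0.98). Every direction given here therefore rests on the labels. The labels call the arrays biological duplicates without saying that they came from separate cultures, so p-values reflect only how far these particular arrays differ. An exact test of 1 gene on 4 such arrays reaches a two-sided p of 0.333 at best, and limma's moderated test over all 17245 genes was used instead.

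No migration gene of the 34 passed at an adjusted p under 0.05 in the fit that leaves the duplicate numbers out (limma, adjusted p from 0.24 to 1.00), and the share over all genes was 0%. At an unadjusted p under 0.05 there were 5 of 34, or 14.7%. The share was 10.8% over all genes and 22.7% over the brightest 25% of genes. Of the 5, Itgb1 was higher, and Stmn1, Pafah1b2, Cdk5 and Tubb3 were lower in the PHF6 shRNA arrays. The shares of all genes at that level were 3.28% higher and 7.52% lower. That split depends on scaling, since 69.7% of the genes at that level were lower as deposited, against 54.5% after a further quantile normalization and 48.2% after cyclic loess. Among the members both scalings gave 2 higher and 3 lower.

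As deposited, more migration genes had lower than higher signal in the PHF6 shRNA arrays, as bright probe sets did in general. Of the 34, 22 had lower and 12 higher means in the PHF6 shRNA arrays, with a median difference of -0.07 log2 units, against -0.01 over all genes. The lean depended on single arrays: without control duplicate 1, 29 were lower and 5 higher with a median of -0.10, and without control duplicate 2, 18 were lower and 16 higher with a median of -0.0083. Under a further quantile normalization 19 were lower, with a median of -0.03, and under cyclic loess 18, with a median of -0.01. The probe sets of 29 members belonged to the brightest 25% of all genes. Among those bright genes the median was -0.08 and 66.0% were lower, close to the 64.7% of the migration genes, and nothing in these counts sets the migration genes apart.

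**Figure D1:**
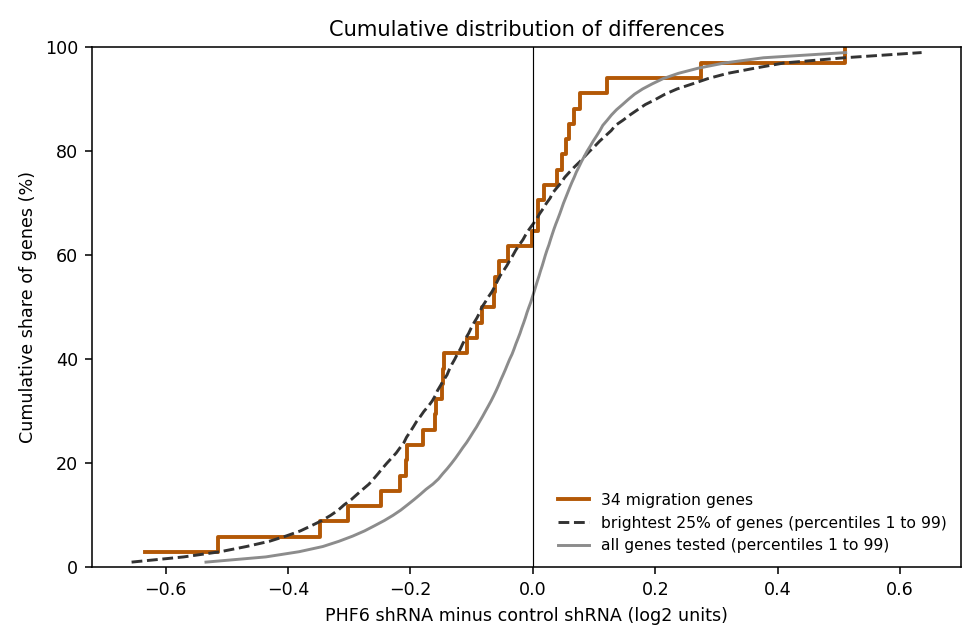
Cumulative share of genes (y axis, percent) against the difference PHF6 shRNA minus control shRNA (x axis, log2 units), for the 34 migration genes, the brightest 25% of genes and all genes tested. The migration genes, with a median of -0.07, run near the bright genes at -0.08 and left of all genes at -0.01 over the lower part of the range.

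The arrays of the 2 groups did not overlap in 15 members, or 44.1%, against 37.8% of all genes and 52.7% of the brightest 25%. Of these, 13 had both PHF6 shRNA values under both control values (38.2%), as 21.7% of all genes and 38.9% of the brightest 25% did, and 2, Itgb1 and Dab1, had both above, as 16% of all genes did. Only Stmn1 differed by at least 1.5-fold, 28 members differed by less than 0.25 log2 units and 16 by less than 0.1. The SE of a member's difference ran from 0.08 to 0.20.

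**Figure D2:**
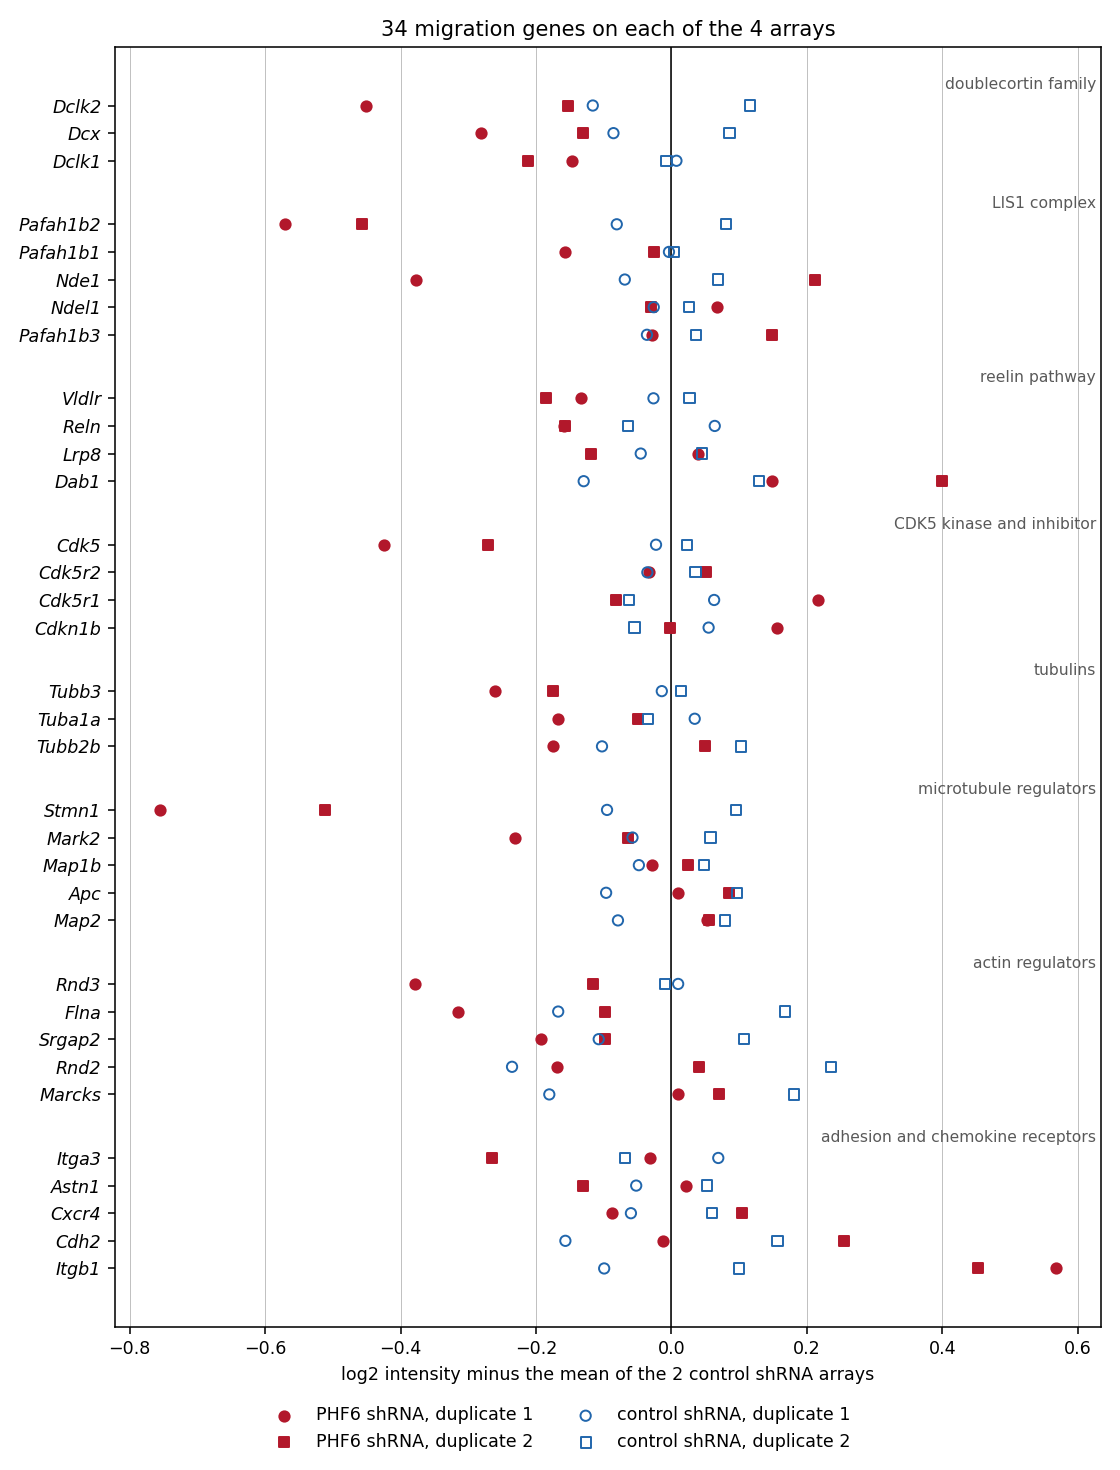
Each member's log2 intensity on each array minus the mean of the 2 control shRNA arrays (x axis, log2 units), with members grouped by role down the page; red filled points are PHF6 shRNA arrays, blue open points control shRNA arrays, circles duplicate 1 and squares duplicate 2. Stmn1, Pafah1b2 and Cdk5 lie left of both control arrays and Itgb1 right of both, while most other members lie close to the control points.

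The doublecortin family was lower in all 3 members without overlap between the groups, as deposited and with lower means under each of the 3 other scalings, but none passed the test. Lower values without overlap were found in 21.7% of all genes and in 38.9% of the brightest 25%. With each array left out in turn the difference ran from -0.29 to -0.12 for Dcx, from -0.21 to -0.15 for Dclk1 and from -0.45 to -0.15 for Dclk2. Dcx encodes doublecortin, the X-linked lissencephaly protein that binds and stabilises microtubules in migrating neurons. Its intensities were 1630 and 1809 in PHF6 shRNA arrays, against 1866 and 2101 in control arrays, a difference of -0.21 ± 0.11 log2 units (limma adjusted p = 0.60). Both PHF6 shRNA values were below both control values, but the 2 nearest values, 1809 and 1866, were closer together than the arrays of either group. Dclk1, a doublecortin-like microtubule-binding kinase that acts alongside Dcx, gave 1214 and 1161 in PHF6 shRNA arrays, against 1351 and 1338 in control arrays, a difference of -0.18 ± 0.08. Dclk2, the related kinase, gave 173 and 213 in PHF6 shRNA arrays, against 218 and 256 in control arrays, a difference of -0.30 ± 0.14. For the kinases the limma adjusted p was 0.54 and 0.55, and in Dclk2 the higher PHF6 shRNA array nearly met the lower control array.

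Within the LIS1 complex a single member stood out. Pafah1b2, which encodes a catalytic subunit of the platelet-activating factor acetylhydrolase that LIS1 also belongs to, gave 236 and 256 in PHF6 shRNA arrays, against 332 and 371 in control arrays. Both PHF6 shRNA arrays were well below both control arrays. The difference was -0.51 ± 0.10 log2 units, or 1.43-fold lower, with a 95% interval from -0.76 to -0.26 (limma unadjusted p = 0.0028, adjusted p = 0.24).

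LIS1 itself and its other partners differed little. Pafah1b1, the LIS1 gene and the classical lissencephaly gene, gave 541 and 593 in PHF6 shRNA arrays, against 602 and 605 in control arrays, a difference of -0.09 ± 0.09 (limma adjusted p = 0.88). The groups did not overlap, yet the 95% interval ran from -0.32 to 0.13. Pafah1b3, the other catalytic subunit, gave 521 and 589 in PHF6 shRNA arrays, against 518 and 545 in control arrays, a difference of 0.06 ± 0.10. Ndel1, which couples LIS1 to dynein, gave 327 and 306 in PHF6 shRNA arrays, against 307 and 318 in control arrays, a difference of 0.02 ± 0.09. For these last genes the groups overlapped. Nde1, a dynein regulator used largely by dividing progenitors, was the dimmest member: its intensities of 32.9 and 49.5 in PHF6 shRNA arrays and 40.8 and 44.9 in control arrays exceeded background only in the duplicates numbered 2, and the PHF6 shRNA arrays enclosed the control arrays.

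Of the reelin pathway, ligand and receptors were slightly lower and the adaptor higher, none past the test. Reln, the secreted ligand, gave 207 and 207 in PHF6 shRNA arrays, against 241 and 221 in control arrays, a difference of -0.16 ± 0.09 (limma adjusted p = 0.65). Reelin comes from Cajal-Retzius cells and later from interneurons, and of the other 8 Cajal-Retzius markers measured, 5 (Calb2, Tp73, Ebf2, Lhx5 and Lhx1) were above background on no array. The others, Cacna2d2 (-0.11), Ebf3 (-0.05, above background on 2 arrays) and Nhlh2 (-0.02), had lower means with overlap. Vldlr, a reelin receptor, gave 315 and 304 in PHF6 shRNA arrays, against 339 and 352 in control arrays, a difference of -0.16 ± 0.08 (limma adjusted p = 0.61). Lrp8, the apolipoprotein E receptor that also binds reelin, gave 393 and 352 in PHF6 shRNA arrays, against 370 and 394 in control arrays, a difference of -0.04 ± 0.10 whose sign turned under a further quantile normalization and under cyclic loess.

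Dab1, the intracellular adaptor that is phosphorylated when reelin binds, went the other way. It gave 808 and 963 in PHF6 shRNA arrays, against 667 and 798 in control arrays, a difference of 0.27 ± 0.14 in log2 units (1.21-fold) with a 95% interval from -0.07 to 0.61 (limma adjusted p = 0.59). The groups did not overlap, and the duplicate numbered 2 was the higher in each group. Between arrays of the same number the difference was 0.28 (duplicates 1) and 0.27 (duplicates 2), and leaving out each array in turn gave values from 0.14 to 0.40.

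Cdk5 was lower while the genes of its activators differed little. Cdk5, a cyclin-dependent kinase of postmitotic neurons, gave 307 and 342 in PHF6 shRNA arrays, against 405 and 419 in control arrays. The PHF6 shRNA arrays lay clearly below the control arrays, a difference of -0.35 ± 0.09 in log2 units (1.27-fold lower) with a 95% interval from -0.58 to -0.11 (limma unadjusted p = 0.012, adjusted p = 0.31). Cdk5r1, which encodes an activating subunit of the kinase, gave 181 and 148 in PHF6 shRNA arrays, against 163 and 150 in control arrays, a difference of 0.07 ± 0.13. Cdk5r2, the second activator, differed by 0.01 ± 0.09 and Cdkn1b, a cyclin-dependent kinase inhibitor that in mouse also aids migration of cortical neurons, by 0.08 ± 0.10. The groups overlapped in these activators and in Cdkn1b.

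**Figure D3:**
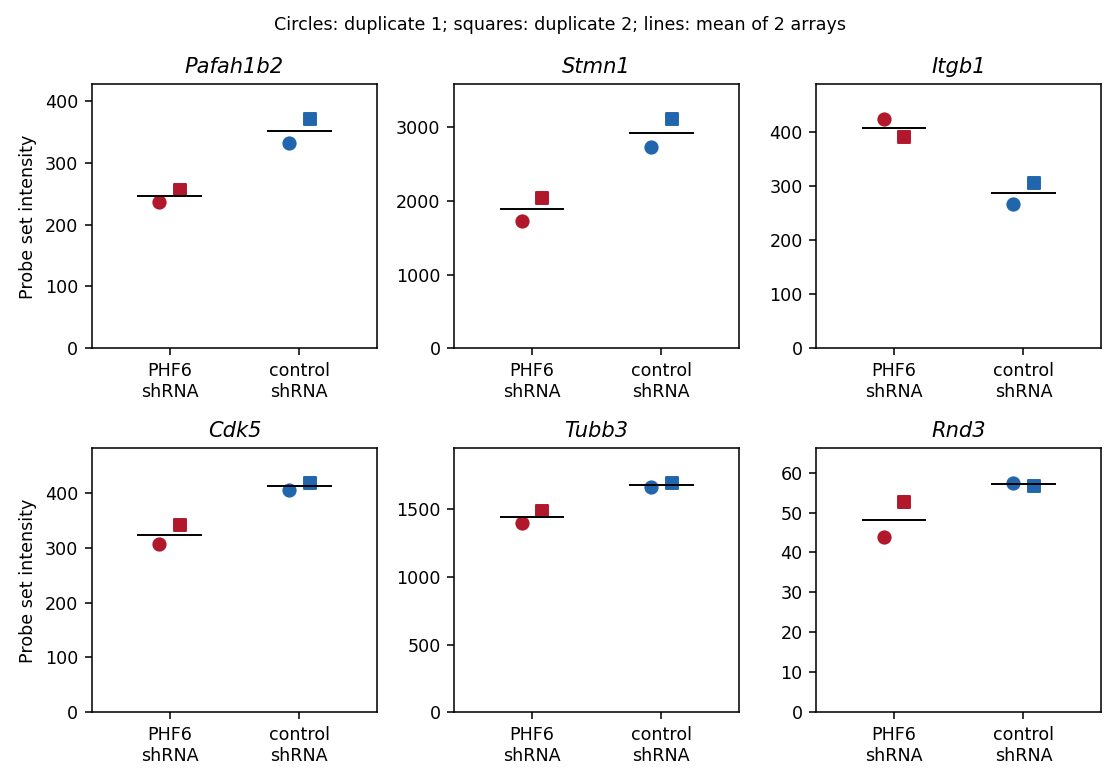
Probe set intensity (y axis, linear from 0) of the 6 members with the smallest unadjusted p, with PHF6 shRNA arrays in red left of control shRNA arrays in blue, circles for duplicate 1, squares for duplicate 2 and lines at the mean of 2 arrays. Itgb1 is higher at 424 and 392 against 267 and 307, and Pafah1b2, Stmn1, Cdk5, Tubb3 and Rnd3 are lower, in every case without overlap.

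Among microtubule regulators Stmn1 had the largest difference of any of the 34 genes. Stmn1 encodes stathmin, which binds free tubulin and destabilises microtubules. It gave 1726 and 2043 in PHF6 shRNA arrays, against 2727 and 3112 in control arrays, so that both PHF6 shRNA arrays were far below both control arrays. The log2 level was 10.87 ± 0.17 in PHF6 shRNA arrays and 11.51 ± 0.13 in control arrays (SD, n = 2 each). The difference was -0.63 ± 0.12, or 1.55-fold lower, with a 95% interval from -0.94 to -0.33 (limma unadjusted p = 0.0028, adjusted p = 0.24), and leaving out each array in turn gave values from -0.76 to -0.51.

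The other microtubule regulators showed little. Mark2, a polarity kinase that detaches microtubule-associated proteins, gave 129 and 145 in PHF6 shRNA arrays, against 146 and 158 in control arrays, a difference of -0.15 ± 0.10 (limma adjusted p = 0.75). The upper PHF6 shRNA array and the lower control array were nearly equal. Map1b and Map2, the microtubule-associated proteins of growing axons and of dendrites, differed by -0.0023 ± 0.09 and 0.05 ± 0.09. Apc, which binds microtubule ends, differed by 0.05 ± 0.10. In Map1b, Map2 and Apc the groups overlapped, and Map1b, with a 95% interval from -0.22 to 0.21, changed sign with a further quantile normalization and with cyclic loess.

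The tubulin genes, whose mutations cause cortical malformations, had lower means in all 3 members, also under each of the 3 other scalings. Lower means were found in 66.0% of the brightest 25% of genes. Tubb3, the beta tubulin used as a marker of neurons, gave 1399 and 1484 in PHF6 shRNA arrays, against 1659 and 1692 in control arrays. The groups did not overlap, with a difference of -0.22 ± 0.08 (limma unadjusted p = 0.045, adjusted p = 0.45). Tuba1a, the main alpha tubulin of young neurons, gave 3206 and 3481 in PHF6 shRNA arrays, against 3688 and 3517 in control arrays, a difference of -0.11 ± 0.09. Tubb2b, a beta tubulin of migrating neurons, differed by -0.06 ± 0.12, with overlap. With each array left out in turn its difference ran from -0.18 to 0.050, so its sign was not stable.

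Tubulin genes have near-identical copies, so probe sets can share signal between them and single tubulin values are uncertain. The related genes gave differences of 0.01 (Tuba1b), 0.12 (Tuba1c), -0.01 (Tubb2a) and 0.03 (Tubb5). None of these approached the difference of Tubb3 in the lower direction.

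**Figure D4:**
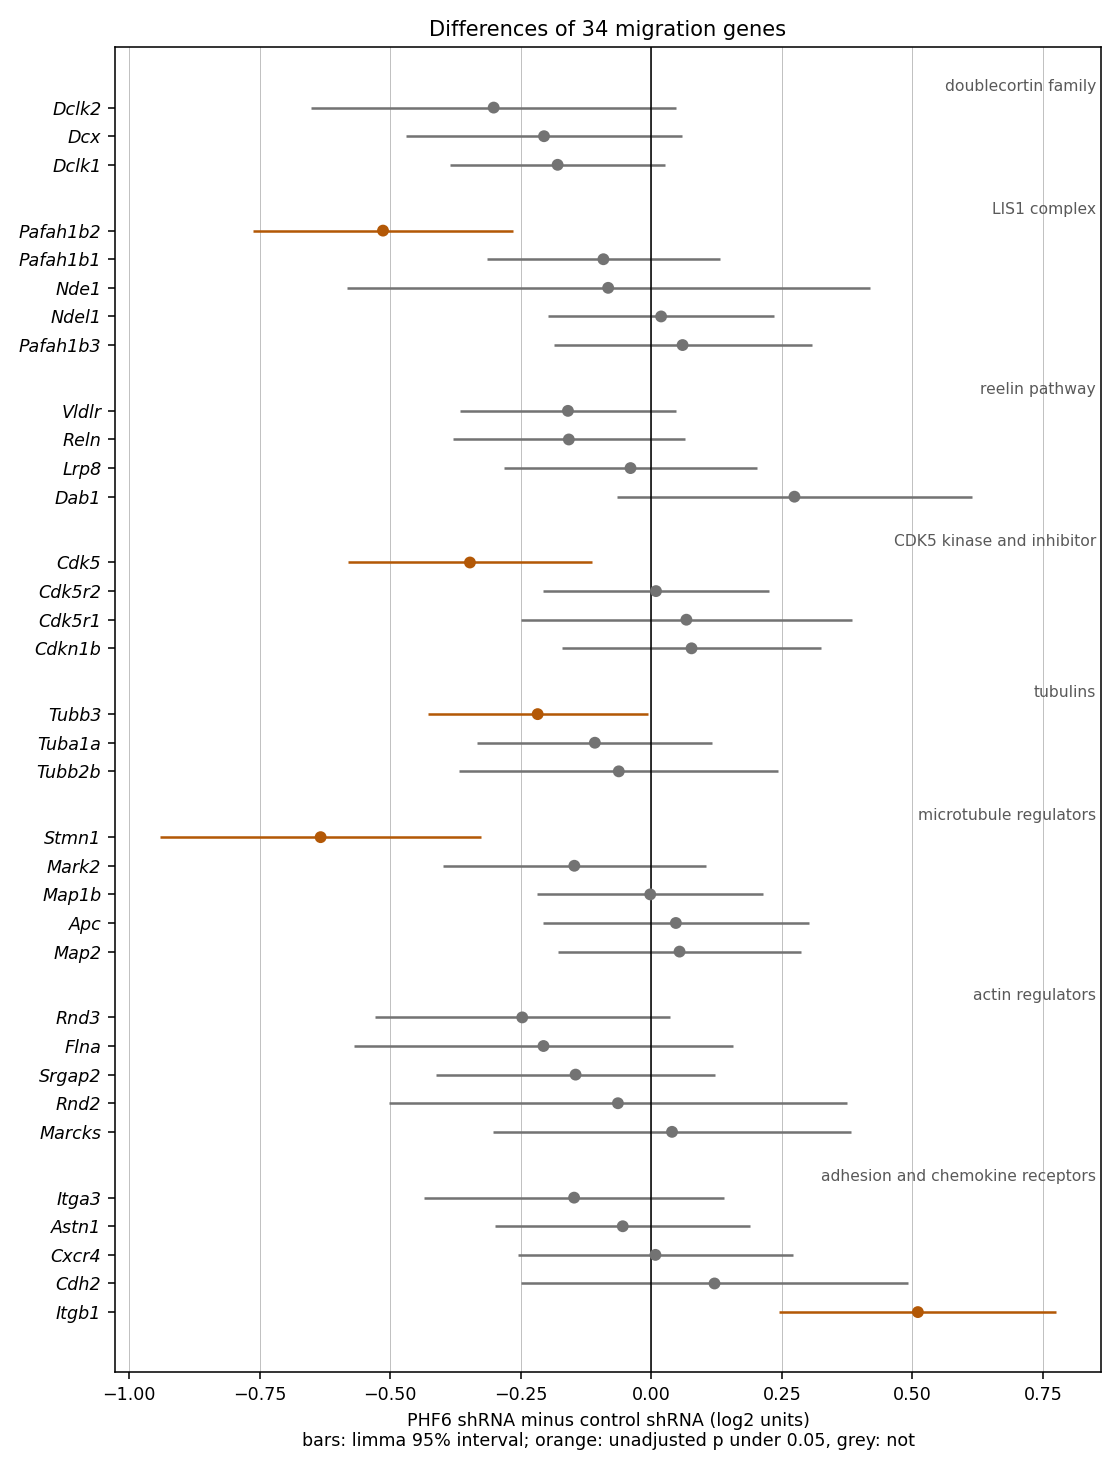
Difference PHF6 shRNA minus control shRNA of each member (x axis, log2 units) with limma's 95% interval, grouped by role; orange marks an unadjusted p under 0.05 and grey the rest. Intervals of Stmn1 (-0.94 to -0.33), Pafah1b2, Cdk5, Tubb3 and Itgb1 exclude 0. None of the 34 genes passed after adjustment in this fit, which leaves the duplicate numbers out.

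Actin regulators were lower in 4 of 5 members as deposited, and Rnd2 turned to 0.0014 under cyclic loess. Rnd3, an atypical small GTPase that loosens actin fibres, gave 43.9 and 52.6 in PHF6 shRNA arrays, against 57.4 and 56.6 in control arrays, a difference of -0.25 ± 0.11 (limma adjusted p = 0.54). Both PHF6 shRNA arrays were below both control arrays, and the lowest, PHF6 shRNA duplicate 1, was just above its background level of 42.6. Flna, the actin crosslinker filamin A of periventricular heterotopia, gave 198 and 230 in PHF6 shRNA arrays, against 219 and 277 in control arrays, a difference of -0.21 ± 0.14 with overlap. Srgap2, a GTPase-activating protein that shapes membrane protrusions, differed by -0.15 ± 0.11. Rnd2, a relative of Rnd3 that in mouse cortex acts downstream of Neurog2, differed by -0.06 ± 0.18, and Marcks, a membrane-bound actin regulator, by 0.04 ± 0.14. The groups overlapped in these last genes, and the PHF6 shRNA arrays of Rnd2 (97.3 and 113) lay between its control arrays (92.9 and 129).

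Among adhesion and chemokine receptors, Itgb1 was the member with the largest difference toward higher signal. It encodes integrin beta 1, the common beta chain of many matrix receptors. It gave 424 and 392 in PHF6 shRNA arrays, against 267 and 307 in control arrays, so both PHF6 shRNA arrays exceeded both control arrays. The log2 level was 8.67 ± 0.08 in PHF6 shRNA arrays and 8.16 ± 0.14 in control arrays (SD, n = 2 each), a difference of 0.51 ± 0.11, or 1.42-fold, with a 95% interval from 0.25 to 0.78 (limma unadjusted p = 0.0038, adjusted p = 0.24).

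Its laminin-binding partner and the other surface proteins did not show this. Itga3, the integrin alpha 3 chain, gave 164 and 139 in PHF6 shRNA arrays, against 176 and 160 in control arrays, a difference of -0.15 ± 0.11 with overlap. Cdh2, N-cadherin, which joins neurons to radial glia, differed by 0.12 ± 0.15. Astn1, astrotactin, a ligand for glial-guided migration, differed by -0.05 ± 0.10 and changed sign with a further quantile normalization and with cyclic loess. Cxcr4, the chemokine receptor that guides interneurons and Cajal-Retzius cells, differed by 0.01 ± 0.11, with dim signals of 52.5 and 59.9 in PHF6 shRNA arrays and 53.5 and 58.2 in control arrays.

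Promoter sequence is shown for the 3 members with the largest differences, since a reader may wish to compare the starts of genes that differed in opposite directions. Each is the 250 bases before the gene's start from RefSeq on GRCr8, 5′ to 3′ on the gene's strand, with capitals at the matches to GGGCGG (a GC box), CCAAT and CAGATG (an E-box of neuronal basic helix-loop-helix factors), searched on both strands and not overlapping each other in letters. Stmn1 lies at chr5:151964929-151965178 (+), Pafah1b2 at chr8:55176549-55176798 (-) and Itgb1 at chr19:73602027-73602276 (+).
Stmn1: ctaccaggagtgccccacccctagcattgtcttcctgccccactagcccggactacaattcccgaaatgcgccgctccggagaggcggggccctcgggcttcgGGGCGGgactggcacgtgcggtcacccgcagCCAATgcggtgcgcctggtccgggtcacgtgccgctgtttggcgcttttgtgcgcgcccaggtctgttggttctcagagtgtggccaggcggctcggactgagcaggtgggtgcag
Pafah1b2: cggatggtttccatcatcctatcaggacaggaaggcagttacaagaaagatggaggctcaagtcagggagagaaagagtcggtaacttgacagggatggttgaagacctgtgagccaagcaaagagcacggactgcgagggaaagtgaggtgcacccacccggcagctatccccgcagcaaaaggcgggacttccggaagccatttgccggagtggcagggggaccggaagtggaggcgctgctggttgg
Itgb1: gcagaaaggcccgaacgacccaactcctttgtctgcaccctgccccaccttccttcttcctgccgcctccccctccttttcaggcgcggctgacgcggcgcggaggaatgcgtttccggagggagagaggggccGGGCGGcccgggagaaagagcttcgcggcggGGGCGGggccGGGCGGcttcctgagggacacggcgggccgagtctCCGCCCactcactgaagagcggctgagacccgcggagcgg

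Stmn1 held 1 GC box and 1 CCAAT, Itgb1 held 4 GC boxes, and Pafah1b2 held none of the 3 motifs. Of the 34 genes, 29 had a promoter entry, and Rnd2, Cdh2, Pafah1b1, Pafah1b3 and Lrp8 had none. A GC box was present in 19 of the 29 promoters, or 65.5%, against 46.5% of 14045 promoters of genes on the array and 32.4% of all 27456 promoters. CCAAT was present in 11 (37.9%, against 35.0% and 34.3%) and CAGATG in 4 (13.8%, against 11.3% and 13.7%). These are matches of letters only, and the arrays measured nothing at promoters.

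Other genes of the same pathways were read from 7 lists, with 98 of 109 genes measured. None passed at an adjusted p under 0.05 in the fit that leaves the duplicate numbers out. At an unadjusted p under 0.05, 4 were higher and 15 lower, 19.4% of them against 10.8% of all genes and 22.7% of the brightest 25%. The arrays of the groups did not overlap in 49.0%, against 37.8% of all genes and 52.7% of the brightest 25%, and 89 of the 98 were above background on all 4 arrays.

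The dynein genes that work with LIS1 held 4 of those 15, or 30.8% of the list against 10.8% of all genes and 22.7% of the brightest 25%. Lower means were found in 9 of 13 measured (69.2%, against 66.0% of the brightest 25%). The list's median was -0.12, against -0.08 in the brightest 25%. Dync1i2, a dynein intermediate chain, gave 269 and 380 in PHF6 shRNA arrays, against 543 and 620 in control arrays, a difference of -0.86 ± 0.18 (limma adjusted p = 0.24). Dync1i1, the neuronal intermediate chain, gave 584 and 507 in PHF6 shRNA arrays, against 695 and 692 in control arrays, a difference of -0.35 ± 0.10 (limma adjusted p = 0.33). In both chains the groups did not overlap.

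Downstream of reelin, 12 of 16 genes (75%) were lower, against 52.3% of all genes and 66.0% of the brightest 25%. The median was -0.10, against -0.08 in the brightest 25%. An unadjusted p under 0.05 was found in 25% of the 16, against 10.8% of all genes and 22.7% of the brightest 25%. Of these, 2 were higher, with the smallest p, and 2 lower, Rapgef1 (-0.26 ± 0.10) and Akt1 (-0.25 ± 0.09). Rap1b, a small GTPase that acts in neuronal adhesion after reelin, gave 658 and 740 in PHF6 shRNA arrays, against 437 and 454 in control arrays, a difference of 0.65 ± 0.10 (limma adjusted p = 0.23). The groups were far apart for their spread. Nck2, an adaptor that can bind phosphorylated Dab1, differed by 0.41 ± 0.11.

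Of 13 CDK5 substrates and partners, 8 were lower (61.5%, against 66.0% of the brightest 25%), with a median of -0.08. An unadjusted p under 0.05 was found in 3, all lower, a share of 23.1% beside 22.7% of the brightest 25% and 10.8% of all genes. Pak1, a kinase of the actin cytoskeleton, differed by -0.31 ± 0.09 and Ctnnd2, delta catenin, by -0.29 ± 0.11. Of 14 further tubulin and motor genes of cortical malformation, 7 were lower. Tubg1, gamma tubulin, differed by -0.26 ± 0.09 and Tbcd, a tubulin folding cofactor, by -0.22 ± 0.11.

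Relatives of Srgap2 led the 14 other small GTPase and actin genes, of which 7 were lower. Srgap3 gave 206 and 255 in PHF6 shRNA arrays, against 335 and 412 in control arrays, a difference of -0.70 ± 0.15, and Srgap1 differed by -0.37 ± 0.08 (limma adjusted p = 0.24 for each). Of 17 further adhesion and attractant genes, 9 were lower. Cspg5, a neural proteoglycan, gave 131 and 184 in PHF6 shRNA arrays, against 249 and 314 in control arrays, a difference of -0.85 ± 0.20 (limma adjusted p = 0.26), and the study is known to have picked it on these samples, so it is not independent evidence. Erbb4, a neuregulin receptor, differed by -0.38 ± 0.12. Of 12 transcription factors of migration, 6 were lower. Neurod1, a factor of excitatory neurons, differed by 0.87 ± 0.27 and Sox11, a factor of young neurons, by -0.60 ± 0.21 (limma adjusted p = 0.36 and 0.41).

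Markers of the cells a cortical culture can hold bear on several of these values. Neuron markers were above background on all 4 arrays in 8 of 8. Lower means in the PHF6 shRNA arrays were found in 7 of 8 (87.5%, against 52.3% of all genes and 66.0% of the brightest 25%). The groups did not overlap in 50% of these markers, against 37.8% of all genes and 52.7% of the brightest 25%. The summed intensity of the neuron markers was 7057 and 7012 in PHF6 shRNA arrays, against 7889 and 7607 in control arrays, without overlap. The list was not uniform, since Elavl4, with its smallest unadjusted p, was higher by 0.43 ± 0.10 without overlap. Nefl differed by -0.65 ± 0.21, Gap43 by -0.24 ± 0.09 and Stmn2 by -0.20 ± 0.09, also without overlap. In Nefm (-0.28), Syp (-0.06), Snap25 (-0.05) and Rbfox3 (-0.04) the groups overlapped. Excitatory cortical neuron markers were mixed, with higher means in 5 of 7. Their sums were 3707 and 3379 in PHF6 shRNA arrays, against 3328 and 3149 in control arrays, higher without overlap. The rise was not shared by the whole list. Slc17a7, a bright marker, gave 1141 and 852 in PHF6 shRNA arrays, against 1009 and 717 in control arrays, with overlap. Neurod6 (0.01) and Tbr1 (0.06) differed little, and Bcl11b (-0.14) was lower with overlap. A limma unadjusted p under 0.05 was found in 3 of the 7 (42.9%, against 10.8% of all genes and 22.7% of the brightest 25%). Of these, Camk2a (0.57 ± 0.16) and Emx1 (0.34 ± 0.10) were higher without overlap. The smallest unadjusted p of that list belonged to a lower marker, the dim Slc17a6. It gave 55.6 and 47.0 in PHF6 shRNA arrays, against 85.2 and 79.2 in control arrays, a difference of -0.69 ± 0.11 (limma adjusted p = 0.23). In such bulk RNA fewer cells of a type and less RNA per cell cannot be told apart.

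Astrocyte markers had higher means in 8 of 8. Higher means were found in 12 of the 34 members, in 8222 of all 17245 genes and in 1468 of the 4312 brightest. The summed intensity of the astrocyte markers was 1141 and 1771 in PHF6 shRNA arrays, against 808 and 1454 in control arrays, with overlap. Only Slc1a2, a glutamate transporter gene (318 and 357 in PHF6 shRNA arrays, against 140 and 210 in control arrays), and Aldoc, an aldolase gene (246 and 283, against 145 and 206), differed without overlap. The other 6 differed by 0.0094 (Gfap) to 0.26 (Aqp4) log2 units, and of the defining markers Gfap and Aqp4 exceeded background on 2 arrays each. Progenitor and radial glia markers summed to 1940 and 4350 in PHF6 shRNA arrays, against 1918 and 3597 in control arrays, higher in the duplicate numbered 2 of each group. GABAergic interneuron markers, which bear on Reln, summed to 3818 and 3129 in PHF6 shRNA arrays, against 3593 and 2726 in control arrays, with overlap. Most of that sum was Sst, with 2927 and 2397 in PHF6 shRNA arrays, against 2734 and 2048 in control arrays. Higher means were found in 7 of the 8, with a median of 0.14. The 9 Cajal-Retzius markers, with Reln (-0.16) among them, had lower means in 7, with a median of -0.04. Of all genes 52.3% were lower, with a median of -0.01. No marker of the 6 endothelial and pericyte genes exceeded background on all 4 arrays, and 6 of 9 microglial genes did so on none. The part of these cell types in the members' values was not tested.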

How the data were processed

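Per the labels' protocols, total RNA was converted to biotin-labelled sense-strand target for 1-colour Affymetrix arrays. The deposited values are probe set intensities, for which the submitters' processing notes name RMA (the RMA version is not given in the sources used here). With a range of 8.57 to 6121 the intensities are linear, and their log2 was tested.

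Of 29214 probe sets, 18644 carry 1 gene symbol, 962 several and 9608 none in the platform annotation. Symbols were updated through gene identifiers to RefSeq GRCr8 for 18460 and kept for 184. Of several probe sets for a gene the brightest was used. Groups came from the sample titles. Differences were tested with limma 3.58.1 in R 4.3.3 (lmFit, eBayes, two-sided, no covariate), Benjamini-Hochberg adjusted over 17245 genes at 0.05. The fit was tested on simulated data. Alternatives were the duplicate number as a block, each array left out, 3 scalings, 2 filters on dim genes, the mean of probe sets, 2 eBayes priors, array weights and an adjusted p under 0.10. Between any 2 arrays at most 11 values were identical.

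The members and all lists were chosen with earlier results of these data known. By the naming rule every member is named, with all 4 values for 8 core genes and for the 14 smallest p, and the 2 smallest p of each pathway list. RMA compresses dim signals, and precision is limited by the number of arrays.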

Additional observations from a re-analysis of the deposited data

How the results depend on the processing

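No member passed the adjusted threshold under 14 of 15 alternatives. The exception was the duplicate number as a replicate block, on which the labels are unclear: the descriptions repeat the number after the letters exp, without saying that it marks a shared culture or day. In that paired fit 4 members passed, Stmn1 (limma adjusted p = 0.0077), Pafah1b2 (0.014), Itgb1 (0.026) and Cdk5 (0.049), with 909 of all genes (5.27%) and 9 of the other pathway genes, and 11 members had an unadjusted p under 0.05. Same-numbered arrays deviated from their group means together (correlation 0.57 over genes), and in this fit 684 genes, none of them a member, also differed by number.

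Leaving out 1 array leaves a group with 1 array, assumed to vary like the other group. Genes past the threshold then numbered 0 to 90 (2 without PHF6 shRNA duplicate 1, 90 without PHF6 shRNA duplicate 2), other pathway genes 0 to 2 and members none, and members without overlap 23 to 26, since fewer arrays overlap less often. The members' median ran from -0.14 to -0.0083. Of the members 18 kept their sign under every alternative, among them Stmn1, Pafah1b2, Itgb1, Cdk5, Tubb3, Dab1 and the doublecortin family. The other 16, none past the threshold in any fit, changed sign at least once, and the cause was not tested. With 1 array left out their differences ran from -0.38 to 0.21 (Nde1), -0.030 to 0.067 (Ndel1), -0.082 to 0.22 (Cdk5r1), -0.0021 to 0.16 (Cdkn1b), -0.18 to 0.050 (Tubb2b), -0.050 to 0.046 (Map1b), -0.30 to 0.17 (Rnd2), -0.029 to 0.15 (Pafah1b3), -0.12 to 0.039 (Lrp8), -0.033 to 0.051 (Cdk5r2), -0.036 to 0.28 (Cdh2), -0.13 to 0.021 (Astn1), -0.088 to 0.10 (Cxcr4), -0.025 to 0.13 (Map2), -0.050 to 0.14 (Apc) and -0.14 to 0.22 (Marcks). A further quantile normalization gave 0.031 (Lrp8), 0.020 (Map1b) and 0.0091 (Astn1), and cyclic loess gave 0.048 (Lrp8), 0.042 (Map1b), 0.0014 (Rnd2) and 0.031 (Astn1). Dim signal limits Nde1 and Rnd3, which lay near background.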
